A study of Mus musculus with 24 samples.

Results

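Transcripts of 10 immediate-early and AP-1 transcription factors were followed through obstruction of the mouse ureter and its surgical reversal. The factors were Fos, Fosb, Jun, Junb, Jund, Atf3, Egr1, Klf6, Klf4 and Myc, chosen by gene name, and 9 of the 10 have a row among the 14785 genes of the deposited table. Fosb has no row and is not analysed here. The table has 0 genes with a mean under 1.0 FPKM over the 24 libraries, so genes of low mean are not analysed here either. FPKM is the number of fragments relative to transcript length and to the depth of the library.

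AP-1 is a dimer of basic leucine zipper proteins, made of a Jun protein (Jun, Junb, Jund) with a Fos protein (Fos, Fosb and their relatives), a second Jun protein or an ATF protein, and it binds a short palindromic DNA element. Fos and Egr1 are classical immediate-early genes, whose transcription follows a growth factor, stretch or stress signal through MAP kinases, serum response factor and CREB without new protein synthesis, and whose transcripts are short-lived. Atf3 is a stress-inducible family member that mostly represses, Klf6 and Klf4 are zinc-finger factors of the Krüppel-like family, and Myc drives growth and ribosome synthesis. In the kidney these factors are known as early markers of injury to the tubular epithelium.

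All animals were male C57/BL6 mice aged 8 to 9 weeks at the start. In the model the ureter is tied, and in the recovery groups it is reimplanted after 7 days so that urine can drain again. The 6 groups were mice with a sham operation (sham), mice killed on day 2 (UUO2) or day 7 (UUO7) of obstruction, and mice whose obstruction was reversed after day 7 and that were killed 1 (R1W), 2 (R2W) or 4 weeks (R4W) later. The labels give no time of killing for sham. No group carries a transgene, per the labels. Of 10 animals per group 4 were sequenced, as polyA-selected libraries of kidney that the series title calls cortical, so each library is a separate animal. The second R4W library carries a 4-week title and a 2-week treatment label. It was grouped by its title.

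Apart from Egr1, the genes with a row lie at these positions, as the deposited table gives them and as the GRCm38 annotation has them. Fos spans chr12:85473890-85477273, Jun chr4:95049034-95052222, Junb chr8:84974484-84978718, Jund chr8:70698949-70700616 and Atf3 chr1:191170296-191218039. Klf6 spans chr13:5861482-5870394, Klf4 chr4:55527143-55532466 and Myc chr15:61985391-61990374. All 9 genes are protein-coding, and each span given runs over the whole annotated gene.

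The 5 promoters below are shown because each holds a core of the cAMP response element, to which CREB, ATF and Jun-ATF dimers can bind, close to the start of a gene that rose. Each sequence is the 250 bases before the RefSeq transcription start on GRCm38.p6, written 5′ to 3′ on the gene's strand. Capitals mark TGACNTCA, its shorter core TGACG or the reverse complement CGTCA, and the TATA box TATAAA.
Fos promoter, chr12:85473640-85473889, + strand: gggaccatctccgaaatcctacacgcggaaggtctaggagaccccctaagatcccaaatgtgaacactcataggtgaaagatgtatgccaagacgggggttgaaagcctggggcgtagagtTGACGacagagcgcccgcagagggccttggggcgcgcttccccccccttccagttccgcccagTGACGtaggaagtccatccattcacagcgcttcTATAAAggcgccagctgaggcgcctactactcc
Jun promoter, chr4:95052223-95052472, - strand: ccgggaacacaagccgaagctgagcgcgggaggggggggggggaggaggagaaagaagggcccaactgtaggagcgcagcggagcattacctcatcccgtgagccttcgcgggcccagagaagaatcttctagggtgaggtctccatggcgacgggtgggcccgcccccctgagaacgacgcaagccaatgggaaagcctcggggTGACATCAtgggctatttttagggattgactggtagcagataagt
Junb promoter, chr8:84978749-84978998, - strand: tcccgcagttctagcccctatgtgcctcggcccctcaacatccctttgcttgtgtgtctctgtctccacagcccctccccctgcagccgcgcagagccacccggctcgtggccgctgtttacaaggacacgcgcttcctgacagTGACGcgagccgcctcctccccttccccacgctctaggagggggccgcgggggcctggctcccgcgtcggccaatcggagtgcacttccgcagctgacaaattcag
Atf3 promoter, chr1:191183334-191183583, - strand: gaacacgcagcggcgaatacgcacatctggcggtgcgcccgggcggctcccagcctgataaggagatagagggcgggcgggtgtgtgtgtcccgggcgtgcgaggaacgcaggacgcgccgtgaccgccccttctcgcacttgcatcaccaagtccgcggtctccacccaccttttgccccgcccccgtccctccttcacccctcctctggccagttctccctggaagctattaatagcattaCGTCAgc
Klf6 promoter, chr13:5861239-5861488, + strand: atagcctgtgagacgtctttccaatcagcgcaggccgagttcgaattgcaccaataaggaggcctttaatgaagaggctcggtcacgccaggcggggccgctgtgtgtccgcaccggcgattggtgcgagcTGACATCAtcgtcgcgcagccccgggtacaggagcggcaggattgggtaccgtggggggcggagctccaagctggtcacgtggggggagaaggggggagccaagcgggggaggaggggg

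The cAMP response element core TGACNTCA and the short site TGACG were searched on both strands, and TGACG lies inside TGACNTCA only where N is G. Of the 10 genes 8 have an entry in the RefSeq promoter table used, and 7 of these 8 hold a match to one or the other. Jun and Klf6 share the full-length match TGACATCA, which begins 45 bases before the start in Jun and 119 bases before it in Klf6. Short sites begin 129 and 66 bases before the start in Fos, 106 in Junb, 60 in Fosb, 7 in Atf3 and 232 in Klf4. The TATA box of Fos begins 33 bases before its start. Among 32851 promoters of the same length, 7.49% hold TGACNTCA, 17.8% hold TGACG and 12.4% hold TATAAA. The AP-1 element TGANTCA, present in 6.75% of promoters, and the serum response element core known as the CArG box, present in 1.47%, were in 0 of the 8 windows. The Jund window holds no match, and its RefSeq start lies 1210 bases before the start of the gene in the deposited table. The RefSeq start of Atf3 lies inside the span of the gene in that table. A match describes letters and not a bound site.

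Libraries showed the kidney markers the labels call for, with a summed level of 5 proximal tubule genes (such as Slc34a1 and Lrp2) of 2956 to 3481 FPKM in sham and 645.9 to 807.7 FPKM in UUO7. Macrophage and fibroblast markers were higher after 7 days of obstruction. The 4 macrophage genes summed to 31.74 to 44.84 FPKM in sham, 40.57 to 88.19 in UUO2, which overlapped sham, and 388.0 to 517.7 in UUO7. The 4 fibroblast genes summed to 15.34 to 38.25, 41.63 to 79.31 and 299.8 to 367.6 FPKM in these groups. In whole tissue, fewer cells of a type and less RNA per cell cannot be told apart, and the part of cell composition in the results below was not tested. Whole-fragment steps in the values implied 24740000 to 35440000 fragments for 20 libraries. The 4 UUO2 libraries showed no such steps, so their depth is unknown, and a difference in how they were handled cannot be told apart from the group. FPKM is relative to the whole library, and the log2 fold change between UUO7 and sham had a median of 0.42 over all genes. For this reason results are also given after rescaling each library by the median of its ratios to each gene's geometric mean.

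After 7 days of obstruction all 9 genes were higher than in sham. Atf3 was 18.1 times its sham mean, Myc 12.7 times, Klf6 10.0 times, Junb 7.77 times, Egr1 6.08 times, Klf4 5.25 times, Fos 4.22 times, Jun 3.89 times and Jund 3.01 times. With limma's test on log2(FPKM + 1) and an adjusted p under 0.05, 9 of 9 were called higher, against a background of 60.1% of all genes called higher and 17.8% called lower. Their median log2 fold change was 2.37, beside 0.42 for all genes. In rescaled values 9 of 9 were called higher with a median of 1.94, against 36.5% of all genes called higher and 36.5% called lower. For all 9 genes each UUO7 library lay above each sham library, which was so for 56.9% of all genes. The comparisons with sham below share the same 4 sham libraries, and those with UUO7 share its 4 libraries.

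**Figure D1:**
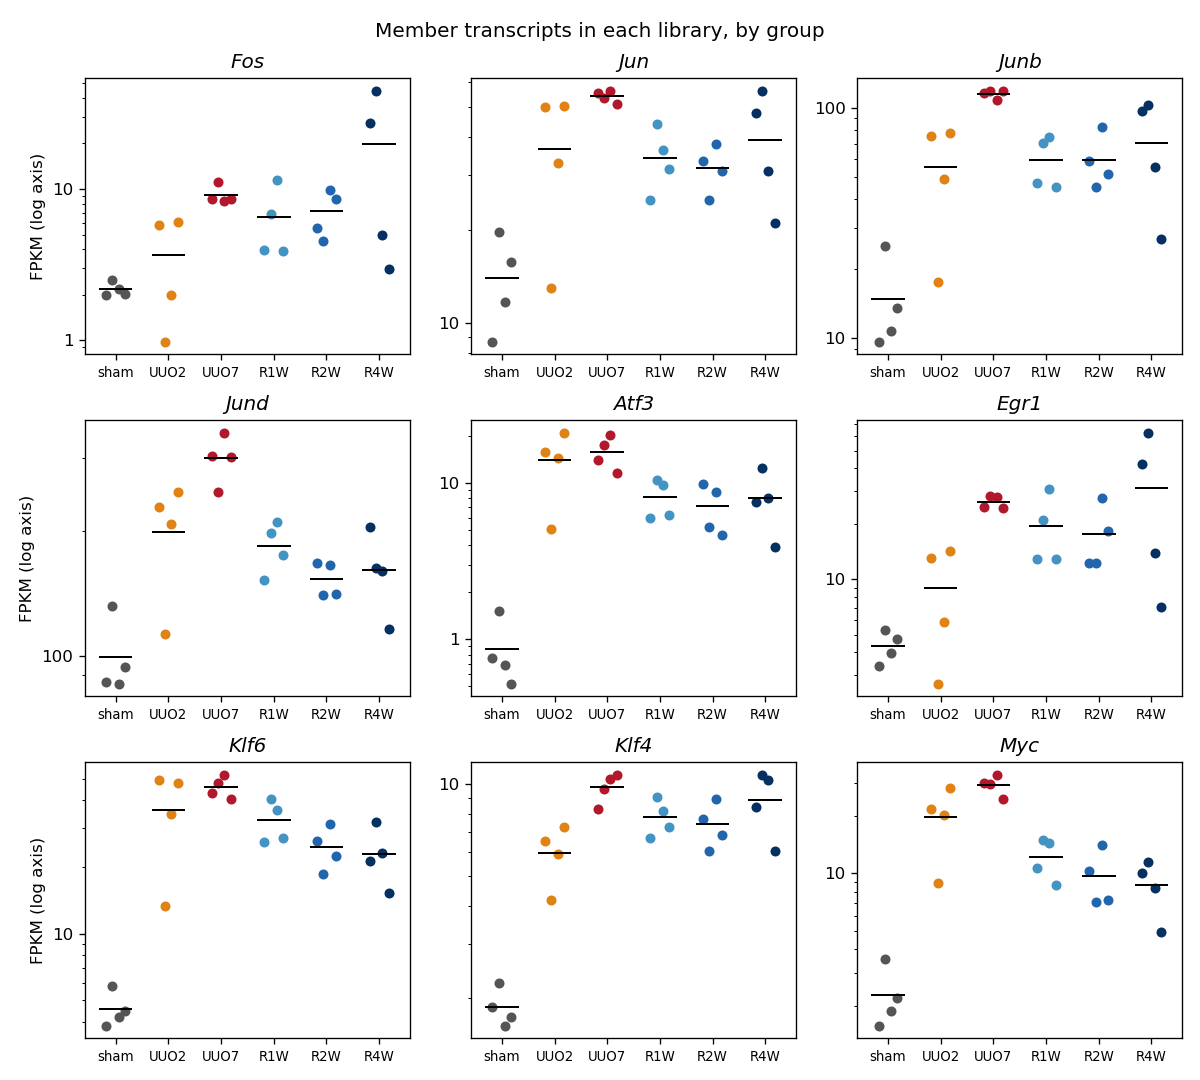
FPKM of the 9 genes on log axes in each of the 24 libraries, by group (4 libraries each), with the group mean as a bar. The UUO7 libraries lie above all sham libraries in every panel, and the R4W libraries of Fos spread from 2.98 to 44.48 FPKM.

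The Fos and Jun proteins are the partners of AP-1. Fos read 2.01, 2.52, 2.18 and 2.02 FPKM in sham replicates 1 to 4, and 5.75, 0.98, 2.01 and 6.03 in UUO2. In UUO7 it read 8.64, 11.18, 8.40 and 8.60 FPKM. The UUO2 libraries fell on both sides of the sham libraries, while the UUO7 libraries all lay above both groups. Fos was 0.37 ± 0.56 (SE) higher in UUO2 than in sham on the log2(FPKM + 1) scale (adjusted p = 0.618 by limma) and 1.68 ± 0.56 higher in UUO7 (adjusted p = 0.0102). The UUO2 interval of -0.80 to 1.54 covers both a fall and a rise. With a pseudocount of 10 the UUO7 call of Fos was lost (log2 fold change 0.65, adjusted p = 0.0521 by limma).

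Jun, the core partner of most AP-1 dimers, read 8.69, 19.61, 11.72 and 15.75 FPKM in sham, 50.08, 12.95, 32.90 and 50.24 in UUO2, and 55.26, 53.55, 56.24 and 51.17 in UUO7. Of the UUO2 libraries 3 were above all sham libraries and the second lay within the sham range. Jun rose by 1.22 ± 0.34 in UUO2 (adjusted p = 0.00511 by limma) and by 1.94 ± 0.34 in UUO7 (adjusted p = 2.32e-05). Junb, a weaker activator that is itself induced by early signals, averaged 14.8 ± 7.14 FPKM in sham (SD, n = 4), 55.1 ± 28.3 in UUO2 and 115 ± 4.72 in UUO7. It rose by 1.72 ± 0.41 in UUO2 and by 2.98 ± 0.41 in UUO7, the largest log2 fold change of the Fos and Jun genes in UUO7. Jund, which is expressed in many resting cells, had the highest level of the 9 genes in every group. Its mean was 99.6 ± 21.8 FPKM in sham, 200 ± 60.0 in UUO2 and 300 ± 39.4 in UUO7, and its rise in UUO7 of 1.60 ± 0.20 was the smallest of the 9 on the log2 scale. In sham, Fos stood at 2.18 FPKM beside Jund at 99.6 FPKM, and in UUO7 at 9.21 beside 300 FPKM.

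Atf3 had the lowest sham level of the 9 genes. It read 0.76, 1.52, 0.69 and 0.52 FPKM in sham, 15.80, 5.09, 14.42 and 20.81 in UUO2, and 13.89, 17.38, 20.27 and 11.63 in UUO7. All 8 obstructed libraries lay above all sham libraries. Atf3 rose by 2.89 ± 0.34 in UUO2 (adjusted p = 7.95e-07 by limma) and by 3.16 ± 0.34 in UUO7 (adjusted p = 3.79e-08), and since its sham values are near the pseudocount of 1 this scale understates the change. Its UUO7 and UUO2 levels differed by 0.27, with an interval of -0.43 to 0.98.

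Egr1, a zinc-finger factor induced through serum response factor, read 3.39, 5.31, 3.96 and 4.71 FPKM in sham, 13.11, 2.70, 5.82 and 14.16 in UUO2, and 24.82, 28.45, 27.84 and 24.35 in UUO7. As for Fos, the second UUO2 library was below every sham library. Egr1 was 0.70 ± 0.50 higher in UUO2 (adjusted p = 0.265 by limma) and rose by 2.37 ± 0.50 in UUO7 (adjusted p = 0.000216).

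Klf6, Klf4 and Myc had their UUO2 libraries entirely above sham. Klf6 averaged 4.58 ± 0.843 FPKM in sham (SD, n = 4), 36.3 ± 16.7 in UUO2 and 46.0 ± 5.14 in UUO7, a rise of 2.60 ± 0.29 and 3.08 ± 0.29. Klf4, better known for epithelial and endothelial quiescence, averaged 1.86 ± 0.265, 5.96 ± 1.32 and 9.77 ± 1.08 FPKM, a rise of 1.27 ± 0.16 and 1.91 ± 0.16. Myc read 1.58, 3.53, 1.90 and 2.20 FPKM in sham, 21.81, 8.89, 20.22 and 28.19 in UUO2, and 29.91, 29.52, 32.93 and 24.64 in UUO7. The lowest UUO2 library of Myc was thus above the highest sham library, and 3 of the 4 UUO7 libraries were above all UUO2 libraries. Myc rose by 2.58 ± 0.29 in UUO2 (adjusted p = 4.51e-07 by limma) and by 3.22 ± 0.29 in UUO7 (adjusted p = 3.27e-09).

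Over the 9 genes, 7 were called higher in UUO2, all but Fos and Egr1, against 32.3% of all genes called higher and 17.0% called lower. Their median log2 fold change was 1.27 beside 0.09 for all genes. The groups did not overlap for 4 of the 9 (Atf3, Klf6, Klf4 and Myc), against 28.3% of all genes. The second UUO2 library was the lowest of its group for 9 of 9 genes and the fourth was the highest for 8 of 9. That second library also had the highest proximal tubule sum of its group, 2078 FPKM against 1176 to 1414, and the highest collecting duct sum, 515.7 against 202.3 to 221.6. The part of this difference in the results was not tested. Without that library the same 7 genes were called, beside 4999 of 14785 genes called higher and 2791 called lower.

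Between day 2 and day 7, 5 of 9 genes were called higher (Fos, Junb, Jund, Egr1 and Klf4), against 52.0% of all genes. The count was thus near the share of all genes. Egr1 rose by 1.67 ± 0.50 (adjusted p = 0.00609 by limma), Fos by 1.31 ± 0.56 (adjusted p = 0.0459), Junb by 1.25 ± 0.41 (adjusted p = 0.0111), Klf4 by 0.64 ± 0.16 (adjusted p = 0.0011) and Jund by 0.64 ± 0.20 (adjusted p = 0.00913). In rescaled values 2 were called, Egr1 and Klf4, against 30.0% of all genes. Without the second UUO2 library the calls were also Egr1 and Klf4, against 50.1% of all genes. After rescaling and without that library the count was under the share of all genes. The authors' deposited table gives an adjusted p under 0.05 for 1 of the 9, Egr1, against 27.9% of all genes higher at that threshold.

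**Figure D2:**
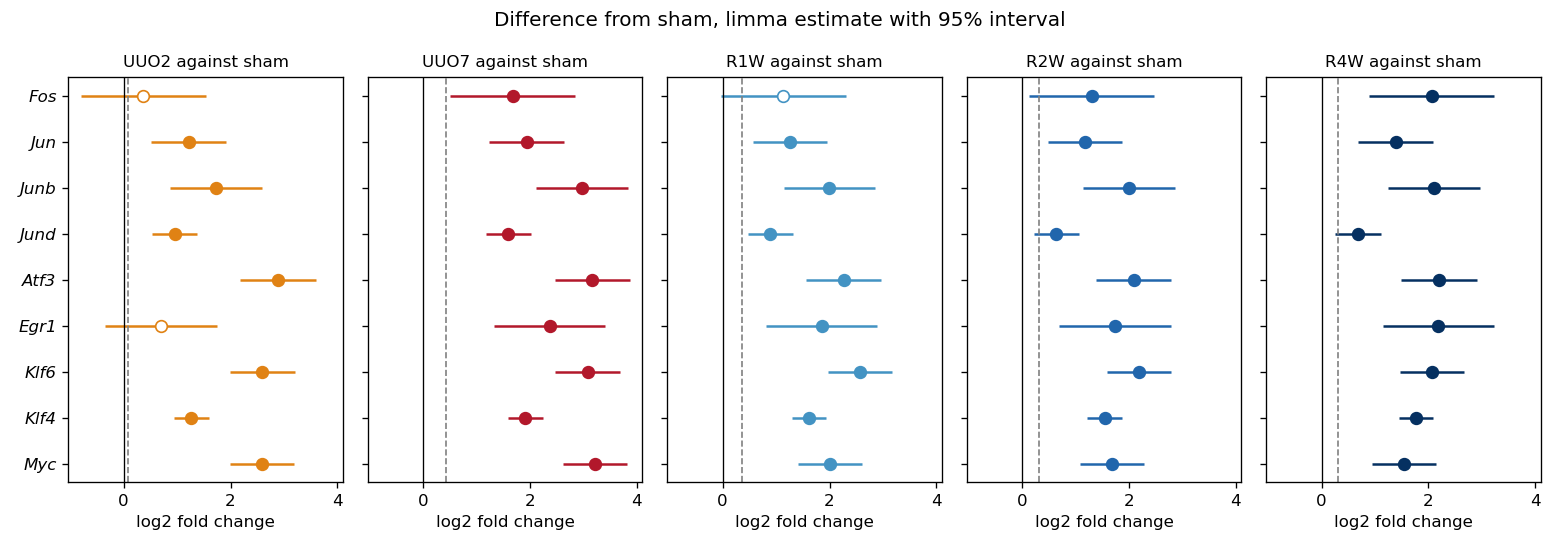
Log2 fold change of each gene against sham on the log2(FPKM + 1) scale in the 5 other groups, from limma, with its 95% interval. Filled points passed an adjusted p under 0.05, open points did not, and the dashed line is the median of all genes. Fos and Egr1 in UUO2 and Fos in R1W are the 3 open points.

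At 1 week after reversal the means of all 9 genes were lower than on day 7. Myc averaged 12.2 ± 3.03 FPKM in R1W (SD, n = 4) against 29.2 ± 3.43 in UUO7, and read 10.71, 15.04, 14.39 and 8.68 in the 4 R1W libraries. Jund averaged 184 ± 25.7 against 300 ± 39.4 FPKM, and read 152.32, 197.99, 210.44 and 175.22 in R1W against 303.25, 249.21, 345.36 and 303.01 in UUO7. In both genes every R1W library lay below every UUO7 library. Myc fell by 1.22 ± 0.29 on the log2 scale (adjusted p = 0.0089 by limma) and Jund by 0.70 ± 0.20 (adjusted p = 0.0245), and these were the 2 of 9 genes called, against 8.04% of all genes called lower and 6.47% called higher. Myc kept its call without any 1 library. Jund lost its call without R1W replicate 1 or 4 or without UUO7 replicate 1, 3 or 4 (adjusted p from 0.0561 to 0.0764).

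The groups did not overlap for 5 of the 9 genes (Jun, Junb, Jund, Atf3 and Myc), against 12.6% of all genes lower in this sense. Fitting the UUO7 and R1W libraries alone called the same 5, against 8.78% of all genes lower: Junb then had a log2 difference of -0.98 ± 0.16 (adjusted p = 0.00694 by limma), where the fit to all 24 libraries gave it ± 0.41 (adjusted p = 0.112). Jun differed by -0.68 (adjusted p = 0.0189 in that fit of 2 groups by limma) and Atf3 by -0.90 (adjusted p = 0.0264). The authors' deposited table lists 7 of the 9 under 0.05, all but Fos and Egr1, against 11.2% of all genes lower at that threshold. Fos and Egr1 were spread most widely in R1W: Fos read 3.94, 6.82, 11.42 and 3.89 FPKM and Egr1 12.86, 20.95, 30.84 and 12.84. The third R1W library was above every UUO7 library for both, whose highest values were 11.18 FPKM for Fos and 28.45 for Egr1.

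In each recovery group the mean of each of the 9 genes was above its sham mean. Marker sums stayed apart from sham too. Macrophage genes summed to 553.7 to 836.8 FPKM in R1W, 472.7 to 1233 in R2W and 455.7 to 873.7 in R4W. Proximal tubule genes summed to 937.7 to 1557, 1021 to 2030 and 1477 to 2106 FPKM. The part of cell composition was not tested. In R1W 8 of 9 genes were called higher than in sham, against 59.4% of all genes, and in R2W 9 of 9, against 56.1%. The R1W libraries of all 9 genes lay above sham, as for 53.4% of all genes, and so did the R2W libraries, as for 50.6%. In R1W Fos missed the threshold (log2 fold change 1.13, interval -0.04 to 2.30, adjusted p = 0.0749 by limma), although with only those 2 groups in the fit its adjusted p was 0.00622. In R2W it passed narrowly (adjusted p = 0.0453 by limma) and failed after rescaling (0.119) and without 7 of the 8 libraries compared, each in turn. Jund in R2W stood at 154 ± 15.0 FPKM (SD, n = 4) against 99.6 in sham, and its call was lost after rescaling (log2 fold change 0.25, adjusted p = 0.255 by limma).

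The group with the highest FPKM mean was UUO7 for 7 genes and R4W for Fos and Egr1. Jun, Junb, Jund, Atf3, Klf6, Klf4 and Myc had their highest mean in UUO7. Among them, Myc and Klf6 had lower means at each later time: Myc 29.2, 12.2, 9.68 and 8.71 FPKM in UUO7, R1W, R2W and R4W, and Klf6 46.0, 32.5, 24.6 and 23.0. At 4 weeks Myc was still 3.79 times and Klf6 5.02 times its sham mean. Klf4 had means of 9.77, 7.80, 7.39 and 8.87 FPKM at these times. The R4W means of Fos and Egr1 were 20.0 ± 19.8 and 31.5 ± 25.7 FPKM (SD, n = 4). For Egr1 the order turned on the log2(FPKM + 1) scale, where UUO7 averaged 4.77 and R4W 4.59. The order also depended on the second R4W library, whose treatment label says 2 weeks. With that library in R2W, Fos averaged 14.6 ± 16.8 FPKM in R2W (SD, n = 5) and 11.8 ± 13.6 in R4W (SD, n = 3), and Egr1 26.6 ± 21.0 and 21.2 ± 18.8, beside 26.4 in UUO7. Between the first and the last recovery time, R4W against R1W gave 0 of 9 calls by limma, with 0 at an unadjusted p under 0.05, against 19.1% of all genes called in either direction. R2W was not compared with R1W or R4W. The authors' deposited table also has 0 of 9 under 0.05 for R4W against R1W, against 17.9% of all genes in either direction. The intervals remained wide, from -0.24 to 2.10 for Fos and from -1.06 to 0.13 for Myc on the log2 scale.

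The high R4W values of Fos and Egr1 came from 2 animals, one of which is replicate 2 with the 2-week treatment label. Fos read 27.52, 44.48, 4.98 and 2.98 FPKM in R4W replicates 1 to 4, and Egr1 read 42.49, 62.43, 13.96 and 7.09. Replicates 1 and 2 were above every library of every other group for both genes, and replicate 4 was just above the highest sham library (2.52 for Fos, 5.31 for Egr1). The highest R4W library of Fos was 14.9 times the lowest, and that of Egr1 8.81 times, whereas in UUO7 these ratios were 1.33 and 1.17. Jun and Junb had the same order of the 4 animals with a smaller range: 47.87, 56.22, 31.06 and 21.07 FPKM for Jun and 97.31, 103.19, 55.25 and 26.98 for Junb. In Klf4 the R4W libraries read 8.41, 10.73, 10.30 and 6.03 FPKM, so replicate 3 was close to replicate 2 there and replicate 1 was not among the highest.

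Against sham, 9 of 9 genes were called higher in R4W, against 54.8% of all genes called higher and 11.6% called lower. After rescaling 8 were called, without Jund (log2 fold change 0.31, adjusted p = 0.166 by limma), against 28.9% called higher and 31.1% called lower. For 8 of 9, all but Jund, the R4W libraries lay above every sham library, as for 52.9% of all genes. Fos was 2.06 ± 0.56 above sham on the log2 scale (adjusted p = 0.00315 by limma) and Egr1 2.18 ± 0.50 (adjusted p = 0.000774). These SE pool the spread of all 6 groups. On the log2(FPKM + 1) scale the SD of Fos was 1.705 in R4W, 0.105 in sham and 0.176 in UUO7. That of Egr1 was 1.37, 0.229 and 0.11. For both genes the pooled SE thus understates the spread in R4W and overstates it in sham and UUO7. Without replicate 2, whose treatment label says 2 weeks, Fos was at 1.47 ± 0.51 (adjusted p = 0.0184 by limma) and Egr1 at 1.72 ± 0.48 (adjusted p = 0.00475), and all 9 genes kept their call, against 51.2% of all genes called higher.

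Markers of other tissue moved in some of these libraries, in 4 of 4 listed adipose genes and 4 of 4 listed uroplakin genes. The summed adipose genes (Adipoq, Plin1, Cfd and Fabp4) stood at 1558, 62.01, 383.5 and 69.54 FPKM in R4W replicates 1 to 4. Replicate 2, the highest for Fos and Egr1, was thus the lowest for the adipose sum, with 3 of its 4 genes under 1 FPKM. Uroplakins summed to 116.6, 36.75, 86.78 and 67.2 FPKM. Replicates 1 and 2, high in Fos and Egr1, stood at the 2 ends of both sums. Replicate 4, the lowest of its group for 9 of 9 genes, had the highest proximal tubule sum (2106 FPKM against 1477 to 2006). It also had the lowest macrophage sum (455.7 against 561.1 to 873.7) and fibroblast sum (133.8 against 195.4 to 235.7). The part of these differences in the results was not tested. In sham, replicate 2 was the highest of 4 for 9 of 9 genes and also had an adipose sum of 281.2 FPKM against 39.83 to 48.11 and a uroplakin sum of 30.45 against 1.42 to 2.17. Other sums were highest there too: collecting duct 586.2 against 199.0 to 270.9 and fibroblast 38.25 against 15.34 to 18.46. Endothelial genes stood at 75.78 against 41.12 to 42.89, and smooth muscle genes at 69.69 against 30.32 to 41.16. Its median ratio used for rescaling was also the highest in sham, 0.8697 against 0.789 to 0.8067. The part of these differences in the sham values was not tested. Without sham replicate 2 the counts of calls against sham were 7, 9, 8, 8 and 9 for UUO2, UUO7, R1W, R2W and R4W, beside 33.1%, 60.2%, 59.4%, 56.2% and 54.6% of all genes called higher.

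**Figure D3:**
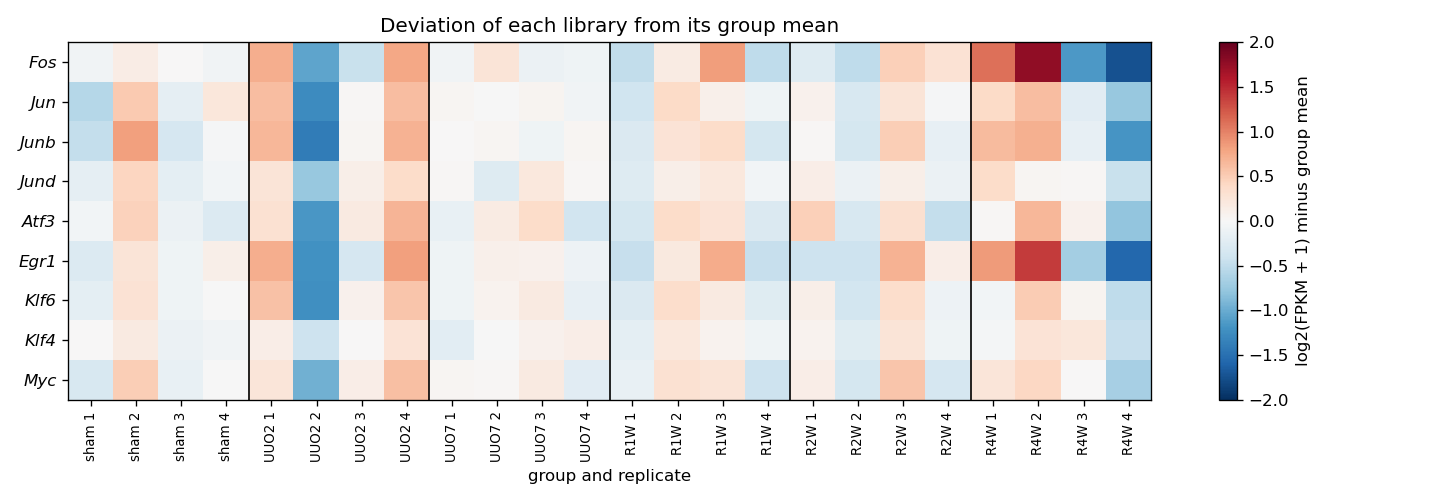
Deviation of each library from its group mean on the log2(FPKM + 1) scale for the 9 genes (rows) in 24 libraries (columns, 4 per group), red above and blue below the mean. UUO2 replicate 2 and R4W replicate 4 are blue in all 9 rows, and the UUO7 columns are pale.

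Within groups the 9 genes tended to be high or low in the same animals. Pearson's r between the deviations of 2 genes from their group means, over 24 libraries, ran from 0.604 to 0.974 in the 36 pairs, with a median of 0.834. The highest values were those of Fos with Egr1 (0.974) and Jun with Junb (0.956). These deviations share library, depth and the scaling of FPKM, so they are given as a description. In UUO2, R2W and R4W the extreme animals were largely common to the genes: R4W replicate 4 was the lowest of its group in 9 of 9 and replicate 2 the highest in 8 of 9, and R2W replicate 2 the lowest in 8 of 9. The same libraries were extreme within their groups in the median ratio used for rescaling. It was lowest in R4W replicate 4 (1.0298), R2W replicate 2 (0.9903) and UUO2 replicate 2 (0.8831). It was highest in R4W replicate 2 (1.0803) and UUO2 replicate 4 (0.9047). R2W replicate 2 also had the highest proximal tubule sum (2030 FPKM) and the lowest macrophage sum (472.7 FPKM) of its group. How many of all genes share these orders was not counted. In R1W the highest library was replicate 2 for 5 genes and replicate 3 for 4, and the lowest was replicate 1 for 5 and replicate 4 for 4. In UUO7 the highest was spread over 3 libraries and the lowest over all 4. UUO7 was the tightest group for Jun and Junb, whose highest library was 1.10 and 1.09 times the lowest.

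Genes whose levels followed each factor most closely over the 24 libraries were ranked by Pearson's r on log2(FPKM + 1) among the 7747 genes that averaged 10 FPKM or more. For Fos they were Egr1 (0.954), Zfp36 (0.893), Ier3 (0.891), Ier2 (0.865) and Btg2 (0.856), which are themselves early response genes. For Jun the first was Junb (0.976), and for Egr1 it was Ier2 (0.959). Atf3 was closest to Klf6 (0.974), followed by the actin gene Actg1 (0.970) and the chemokine gene Cxcl10 (0.968). Klf6 was closest to the adhesion molecule gene Icam1 and to Ywhah (both 0.984), and Klf4 to Tmem43 (0.978). Myc was closest to Rras (0.984), and the mitotic genes Top2a (0.975) and Cks1b (0.973) were among its first 5. Jund was closest to the translation initiation factor genes Eif3g (0.965) and Eif3d (0.962). All of these r values contain the differences between the 6 groups.

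Genes around these factors were described by lists of pathway relatives, whose counts stand beside the shares of all genes called: 32.3% higher and 17.0% lower in UUO2, 60.1% and 17.8% in UUO7, and 54.8% and 11.6% in R4W. Of 13 other AP-1 and bZIP partners, 11 were called higher and 1 lower in UUO7, and 10 higher and 1 lower in R4W, beside 60.1% and 54.8% of all genes higher. Maff, a small Maf protein, rose by 3.03 ± 0.32 on the log2 scale in UUO7 (17.5 ± 1.03 against 1.31 ± 0.601 FPKM, SD, n = 4, adjusted p = 3.38e-08 by limma), and Batf3, a factor of dendritic cells, rose by 2.74 ± 0.21. The Fos relative Fosl1 read 0.285 ± 0.123 FPKM in sham, 3.34 ± 0.993 in UUO2 and 4.39 ± 0.534 in UUO7, then fell by 1.36 ± 0.14 after 1 week of reversal (adjusted p = 6.68e-06 by limma) to 1.10 ± 0.191 FPKM. Maf was the 1 gene of this list called lower in UUO7 and in R4W, and Jdp2, a repressor of AP-1, was the 1 called lower in UUO2 (by 0.49 ± 0.16).

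Of 22 other early response genes 19 have a row, and 10 were called higher in UUO2, 17 in UUO7 and 19 in R4W, with 0 lower, beside 32.3%, 60.1% and 54.8% of all genes higher. Rhob rose by 2.93 ± 0.31 and Ier5 by 2.62 ± 0.19 in UUO7. Nr4a1, an orphan nuclear receptor, had the largest rise of the list in R4W, 2.19 ± 0.52 (adjusted p = 0.000975 by limma), and read 21.81, 46.08, 3.88 and 2.60 FPKM in its 4 libraries against 5.44 to 7.72 in UUO7. Its 2 high R4W libraries were those in which Fos and Egr1 were high. Btg2 had the same order, with 51.80, 62.04, 24.45 and 16.34 FPKM.

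Of 12 feedback inhibitors, which dephosphorylate MAP kinases, bind their activators or bind Egr proteins, 9 were called higher and 1 lower in UUO7, and 9 higher in R4W, beside 60.1% and 54.8% of all genes higher. Spry1 rose by 1.98 ± 0.21 and the MAP kinase phosphatase gene Dusp5 by 1.47 ± 0.20 in UUO7, and Dusp4 fell by 0.46 ± 0.15. Of 16 upstream kinases and factors 15 have a row, and 9 were called higher and 3 lower in UUO7, close to the share of all genes. After rescaling, 6 of these were called higher and 7 lower, beside 36.5% of all genes in each direction. The cofactor gene Mkl1 and the ternary complex factor gene Elk3 rose by 1.30 ± 0.14 and 1.94 ± 0.14 in UUO7, while the kinase gene Mapk14 fell by 0.34 ± 0.11. These are transcript levels, and kinase activity was not measured.

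Of 16 genes of the Myc network and its targets, 13 were called higher and 2 lower in UUO7, and 12 higher and 1 lower in R4W, beside 60.1% and 54.8% of all genes higher. Cdk4 rose by 1.91 ± 0.15 in UUO7 (226 ± 29.6 against 59.0 ± 2.63 FPKM, SD, n = 4), and Npm1 rose by 1.10 ± 0.14 in UUO2. Odc1, the rate-limiting enzyme of polyamine synthesis and a textbook Myc target, fell by 1.78 ± 0.20 in UUO7, from 572 ± 143 to 162 ± 14.5 FPKM (adjusted p = 8.34e-08 by limma). It was also lower in UUO2 (225 ± 32.9 FPKM) and R4W (238 ± 49.2 FPKM). With reversal, Ncl and Fbl, 2 genes of ribosome assembly, fell by 0.59 ± 0.14 and 0.38 ± 0.10 between UUO7 and R1W, while Myc fell by 1.22.

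All 6 genes of the Atf4 branch of the stress response were called higher in UUO2, 5 of 6 in UUO7 and 3 of 6 in R4W, beside 32.3%, 60.1% and 54.8% of all genes. Trib3 rose by 2.95 ± 0.25 in UUO2, from 0.712 ± 0.253 to 13.4 ± 5.80 FPKM (SD, n = 4), and had fallen to 1.72 ± 0.277 in R1W. The asparagine synthetase gene Asns read 3.89 ± 0.785 FPKM in sham, 30.6 ± 11.0 in UUO2, 19.1 ± 3.36 in UUO7 and 7.58 ± 1.26 in R1W. Between UUO2 and UUO7 this list had 4 of 6 called lower, against 14.7% of all genes. Atf4 itself, named after its values were seen, averaged 112 FPKM in UUO2 and 122 in UUO7. Atf3 stood at 14.0 and 15.8 FPKM.

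**Figure D4:**
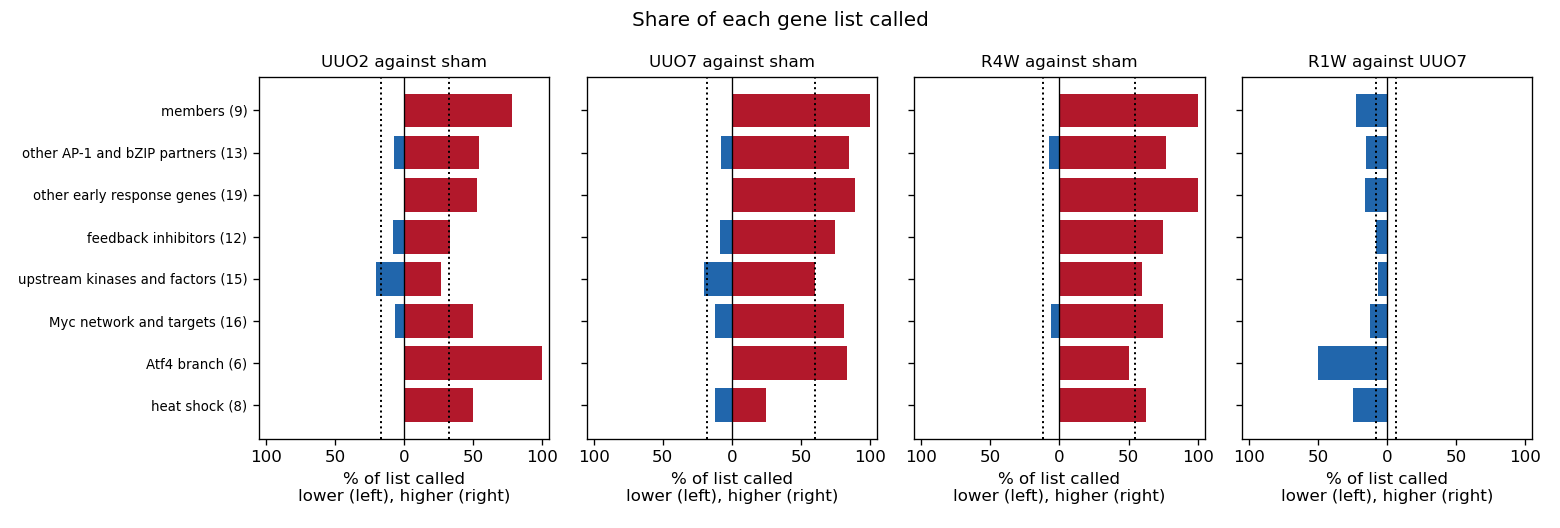
Percent of each gene list called higher (red, right) or lower (blue, left) at an adjusted p under 0.05 by limma in 4 comparisons, with the number of genes tested in brackets. Dotted lines give the percent of all genes called in that direction; the Atf4 branch reached 6 of 6 in UUO2, and the 9 factors and the 19 early response genes were all called higher in R4W.

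After rescaling, the counts called higher in UUO7 became 8 of 13 bZIP partners, 16 of 19 early response genes, 7 of 12 feedback inhibitors, 12 of 16 Myc genes and 5 of 6 Atf4 genes, with 2, 1, 2, 3 and 0 called lower, beside 36.5% of all genes in each direction. In R4W they became 9, 16, 5, 8 and 2 higher in the same order, with 3, 0, 1, 2 and 1 lower, beside 28.9% of all genes higher and 31.1% lower. The rescaled R4W counts of feedback inhibitors and Atf4 genes were thus near the share of all genes. The rescaled medians in UUO7 were 1.03, 1.10, 0.43, 0.45 and 1.16 on the log2 scale, beside 1.94 for the 9 factors. Between UUO7 and R1W, 2 of 13 bZIP partners, 3 of 19 early response genes, 1 of 12 feedback inhibitors, 1 of 15 upstream genes, 2 of 16 Myc genes and 3 of 6 Atf4 genes were called lower, and 0 of any of these lists higher, beside 8.04% of all genes lower and 6.47% higher. The counts of feedback inhibitors and upstream genes were at the share of all genes.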

How the data were processed

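RNA was measured in kidneys of 24 mice, 4 in each of 6 groups taken from the sample titles. The authors deposited 1 table with a value per gene and library. No unit is named per the file headers, and FPKM was inferred from the deposited values: column sums ran from 717415 to 830179 (1.16-fold), sums weighted by transcript length varied 1.08-fold, and 20 libraries showed whole-fragment steps. The submitters' processing notes name FastQC, RSEM, Bowtie2, DESeq2 and mm10, with no roles. The authors' own comparisons are deposited as log2 fold changes with adjusted p-values, and their log2 base and direction were taken from the slope against fold changes of the sample columns (1.05 to 1.22 for genes of mean at least 10 FPKM).

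A linear model with 1 coefficient per group was fitted to log2(FPKM + 1) of the 24 libraries (limma 3.58.1, R 4.3.3, trended eBayes), and p-values were Benjamini-Hochberg adjusted over all 14785 genes. A gene was called at an adjusted p under 0.05. The table holds no counts, so count models were not run. Tables were made with Python 3.11.15. Errors are SD over animals or the SE from limma. Named genes were all members with a row, up to 2 highest and 2 lowest called genes per pathway list in UUO2, UUO7 and R4W against sham and R1W against UUO7, and the 5 genes closest to each member by correlation; per-library values and later groups of these genes were added after their values were seen. Not every gene this rule allows is named, and 1 is not reported here. The members and lists were chosen with earlier results of these data known. Alternatives were rescaling by median ratios, a pseudocount of 0.1 or 10, a filter at a mean of 10 FPKM, fits of 2 groups or without UUO2, a replicate block, moving R4W replicate 2 to R2W, a minimum absolute log2 fold change of 1, and leaving out each library.

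The test was run on simulated data first. Depth is implied by the values in 20 libraries only, and intervals cover the spread between animals, which the model takes as equal in all groups. Promoter sequences are from RefSeq (GRCm38.p6).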

Additional observations from a re-analysis of the deposited data

Results flagged for a closer look

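Fos in UUO7 replicate 2 read 11.18 FPKM, apart from the other 3 UUO7 libraries at 8.40 to 8.64 FPKM. Its gap to the nearest of these was 0.914 of the range of the group, above the 95% critical value of Dixon's test for 4 samples. It was the 1 value to pass among 54 groups checked (9 genes in 6 groups), where chance would give about 2.7.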

How the results depend on the processing

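Over 72 fold changes (9 genes in 8 comparisons) and 1065 alternative values, 1009 kept direction and side of the threshold, 31 lost the call, 10 gained one and 15 changed sign. The counts of called genes against sham in UUO2, UUO7, R1W, R2W and R4W stayed within 1.5 times under every alternative run. UUO7 against UUO2 gave 3 calls when a change of 1 on the log2 scale was required (13.9% of all genes higher). It gave 3 of the 6 left with a mean of at least 10 FPKM (50.2% of genes) and 2 after rescaling (30.0% of all genes). With 1 library left out it gave 2 to 7, beside 7199 to 7555 of 14785 genes higher. The lowest count came without UUO2 replicate 2. R1W against UUO7 gave 1 call under the requirement of a change of 1 (0.413% of all genes lower) and 5 with only the 2 groups (8.78%). With 1 library left out it gave 1 to 2, beside 580 to 1429 of 14785 genes lower.

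The 15 changes of sign were all in values without a call. Atf3 in UUO7 against UUO2 went to -0.052 after rescaling and ran from -0.113 to 0.5 with 1 library left out. In R4W against R1W, moving R4W replicate 2 to R2W gave -0.079 for Jun, -0.135 for Junb and -0.138 for Egr1. With 1 library left out, this comparison ran from -0.079 to 0.379 for Jun, -0.135 to 0.497 for Junb, -0.294 to 0.192 for Atf3 and -0.138 to 0.853 for Egr1. The cause of these changes was not tested.

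Replicate numbers do not pair animals: the correlation of same-numbered deviations averaged -0.174 to 0.148 over the 8 comparisons, and in none was every pair above 0.1. With a replicate block the counts were 7, 9, 8, 8 and 9 against sham, 4 for UUO7 against UUO2, 2 for UUO7 to R1W and 0 for R1W to R4W, beside 31.5%, 59.6%, 58.9%, 55.8% and 54.3% of all genes higher, 51.4% higher, 7.14% lower and 17.4% in either direction. Fos lost its call in R2W (adjusted p = 0.0604 by limma) and in UUO7 against UUO2 (0.0614). The count tests listed as alternatives were not run, because they need counts. Unknown depth in UUO2 limits what can be said of its low genes.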

Other observations

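Heat shock genes did not move as 1 group. Of the 8 listed, 4 were called higher in UUO2, 2 in UUO7 with 1 lower, and 5 in R4W (limma, adjusted p under 0.05), beside 32.3%, 60.1% and 54.8% of all genes called higher. After rescaling the counts higher were 3, 2 and 3, with 0, 3 and 1 lower, beside 25.3%, 36.5% and 28.9% of all genes higher and 25.5%, 36.5% and 31.1% lower. Hspb1, a small chaperone of the actin cytoskeleton, stood at 14.9 ± 11.0 FPKM in sham (SD, n = 4), 139 ± 37.1 in UUO2, 365 ± 37.6 in UUO7, 156 ± 24.5 in R1W and 91.9 ± 26.4 in R4W. The inducible chaperone gene Hspa1b read 95.19, 39.54, 66.07 and 49.01 FPKM in R4W replicates 1 to 4, and 88.94 in sham replicate 2 against 9.31 to 10.87 in the other sham libraries. In R4W, replicates 1 and 2 were the 2 highest for 5 of the 8 genes (Hspb1, Dnajb1, Hspa8, Hsp90aa1 and Bag3). How many of all genes have this order was not counted. The margin was small for Hspa8 (1015.81 FPKM in replicate 1, 1012.5 in replicate 3) and for Hsp90aa1 (127.58 and 125.08). For Hspa1b, replicate 2 was the lowest of the R4W libraries.

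The MAP kinase phosphatase gene Dusp1, chosen after its values were seen, read 74.18, 81.73, 23.53 and 20.53 FPKM in R4W replicates 1 to 4. Its UUO7 libraries read 21.69 to 28.76 FPKM and its sham libraries 13.00 to 27.49, so the 2 high R4W libraries stood above both groups.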
